A study of Caenorhabditis elegans with 12 samples.

Results

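Sperm genes were taken as the protein-coding rows of the count table whose WormBase symbol begins with msp-, spe-, ssp- or nspd-, together with gsp-3 and gsp-4. The rule found 84 genes among the 46748 rows, of which 19641 are protein-coding. The 84 comprised 31 msp, 29 spe, 12 ssp, 10 nspd and 2 gsp genes, and the symbol ssp-9 covered 2 gene identifiers that were kept apart.

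The samples were whole N2 hermaphrodites, N2 being the reference wild type of the worm Caenorhabditis elegans, and RNA-seq gave 12 libraries in 4 groups of 3. Controls received the solvent dimethyl sulfoxide (DMSO) at 0.1% and were sampled at 5 or at 15 days of age. The other groups were exposed for 24 h, starting at the L4 larval stage, to 100 nM rotenone, which blocks mitochondrial complex I, and were sampled at the same ages. Between 34307432 and 53716605 counts were assigned to genes per library. The labels leave unstated the start of the age count, the removal of progeny, the length of DMSO exposure and whether DMSO was also in the rotenone plates. They do not say that replicates came from separate cultures, so p-values measure only the spread between these libraries, which may be technical.

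A hermaphrodite makes its sperm late in larval life and stores it, and the adult gonad then makes oocytes. Sperm of nematodes crawl on a cytoskeleton of major sperm protein (MSP), encoded by the msp genes, and MSP released by sperm is also the signal for oocyte maturation and ovulation. The spe genes were named from mutants with defective sperm. Their products act in sperm formation, in activation of sperm or in fertilization, and several of them also work in other tissues. ssp and nspd genes are named as sperm-specific and nematode-specific peptide families. gsp-3 and gsp-4 encode closely similar protein phosphatase 1 catalytic subunits of the male germline.

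The families differed in structure and place in the genome (WBcel235). All 31 msp genes had a single exon of 234 to 384 bases, and all 10 nspd genes a single exon of 213 to 222 bases, beside a median of 1172 exonic bases over protein-coding genes. The msp genes lay in 3 clusters. On chromosome II, 13 lay between positions 4785898 and 5810330. On chromosome IV, 9 lay between 5055631 and 5316906 and 9 between 9689015 and 10143740. Of the 31, 20 lay within 10000 bases of another sperm gene. Chromosome IV held 37 of the 84 genes (44.05%, beside 16.56% of protein-coding genes), and the X chromosome held 0, beside 13.56% of protein-coding genes. Copies of msp genes and the gsp-3 and gsp-4 pair are similar enough that reads may be shared between them, and how the authors treated such reads is not given in the sources used here. Single values for these genes are therefore uncertain, and family sums less so. Exons of 10 spe genes overlap those of another gene, in no case over 50% of the exonic bases.

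Many sperm genes were near the limit of detection at 5 days. At most 3 counts over the 3 libraries were found for 38 of the 84 genes in DMSO and for 34 after rotenone at 5 days, and for 9 and 8 at 15 days. Each had at least 1 count in some library, but 19 had fewer than 30 counts over the 12 libraries. In DMSO at 5 days 20 genes were at 0 in all 3 libraries, and after rotenone at 5 days 12 were. At 15 days 3 were at 0 in DMSO and 3 after rotenone. A single count was worth 0.0191 to 0.0294 CPM (counts scaled to library size with TMM factors). After the filter on low counts 50 of the 84 genes were tested (15 msp, 23 spe, 5 ssp, 5 nspd and both gsp genes). The other 34 could be described only by their counts. A gene could pass through the age or treatment at which it was high. The counts of tested genes below are therefore a description and not a sample of the 84.

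**Figure D1:**
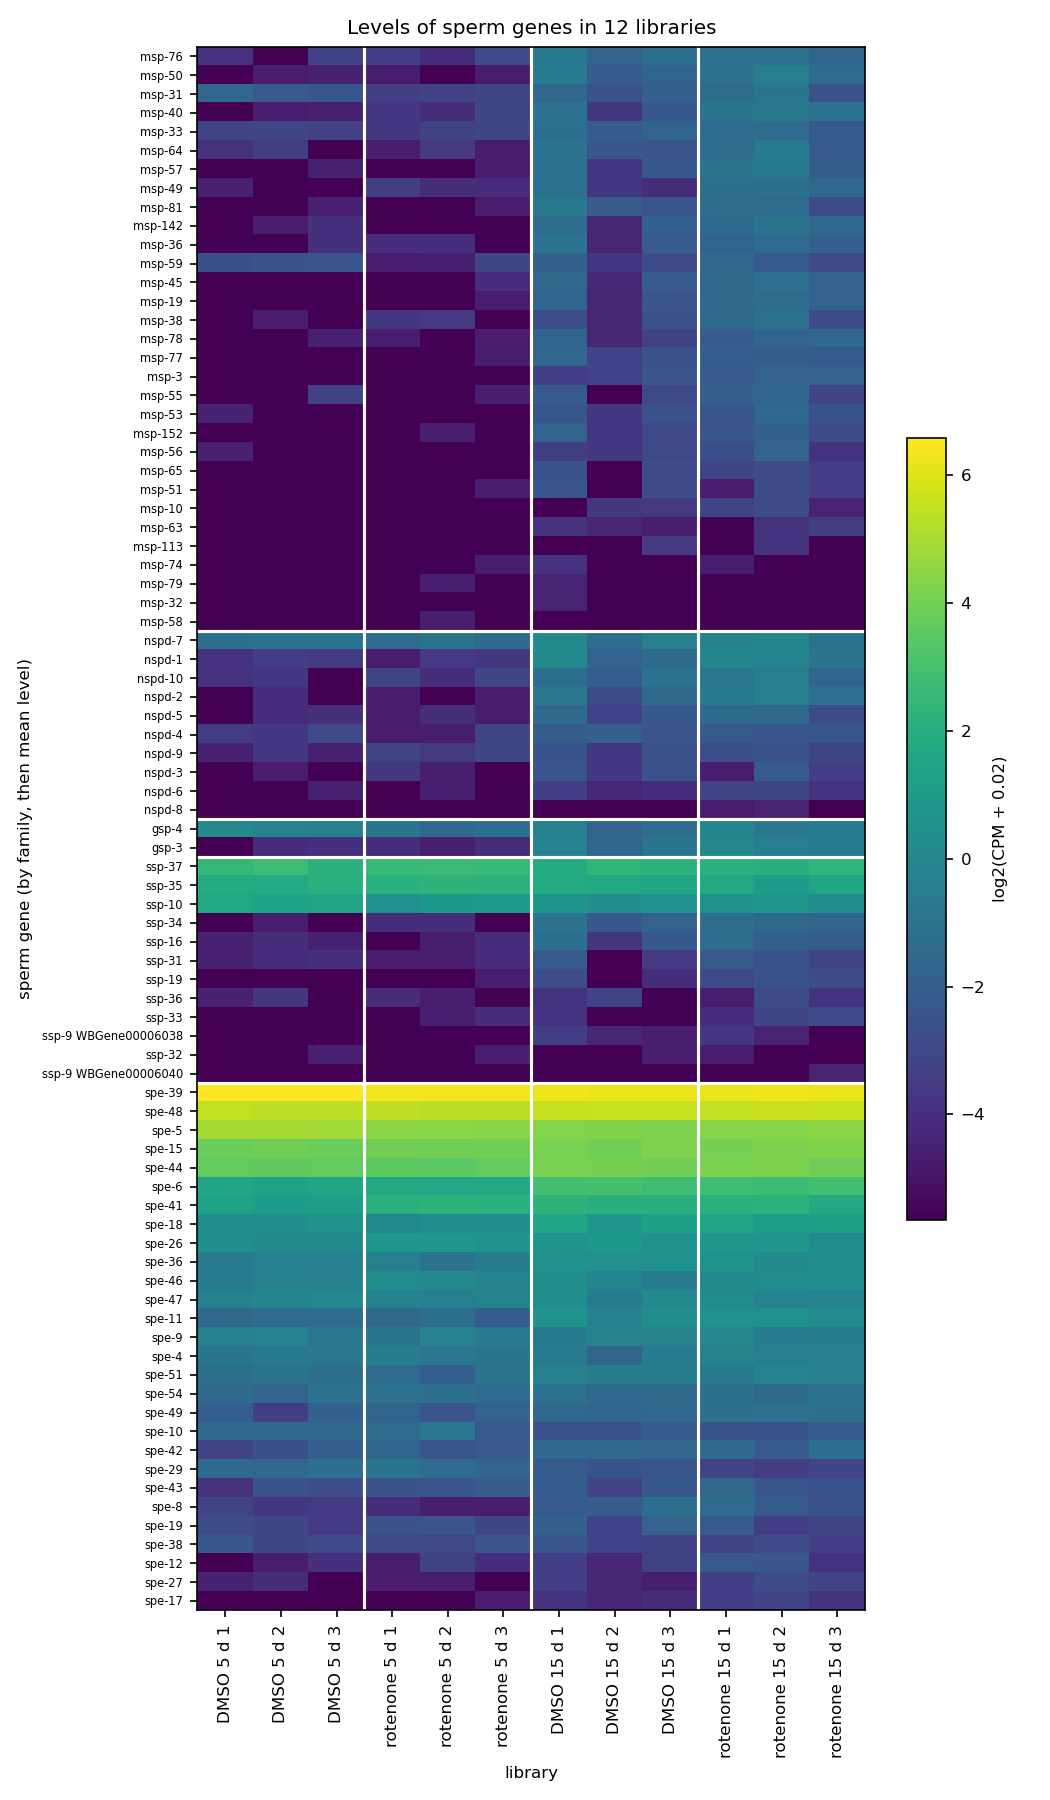
Levels of the sperm genes, with 1 spe gene left out (rows, by family and mean level), in each of the 12 libraries (columns), as log2 of CPM plus a small constant, with the lowest values in dark colour. Most msp and nspd genes and some ssp genes are dark at 5 days and lighter at 15 days. A few spe and ssp genes are high in every library.

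A few genes carried most of the signal. spe-39, spe-48, spe-5 and spe-15 together made up 75.87% of the summed mean level of 218.2 CPM. SPE-39 is a regulator of vesicle trafficking to lysosomes that also acts outside the germline, SPE-5 a subunit of the vacuolar proton pump and SPE-15 an unconventional myosin (myosin VI). Per kilobase of exon, spe-39 stood at 42.3 CPM, spe-48 at 34.8, spe-5 at 13.7, ssp-37 at 11.6, ssp-35 at 11.3 and spe-44 at 8.88 over all libraries. The 31 msp genes, the defining markers of sperm, had 98 counts in all 3 DMSO libraries at 5 days together, and 93 after rotenone. In whole worms fewer cells of a type and less RNA per cell cannot be told apart.

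The msp genes were higher at 15 than at 5 days. Their summed level was 0.702, 0.603 and 0.80 CPM in the DMSO libraries at 5 days, and 8.24, 2.06 and 4.34 CPM at 15 days. After rotenone it was 0.515, 0.539 and 0.780 CPM at 5 days and 7.41, 9.49 and 5.17 CPM at 15 days. No 15-day library overlapped a 5-day library, and DMSO replicate 2 was the lowest at 15 days. The means were 0.702 ± 0.0987 and 4.88 ± 3.12 CPM in DMSO, and 0.612 ± 0.147 and 7.36 ± 2.16 CPM after rotenone (SD, n = 3). The ratio of 15 to 5 days was 6.95 in DMSO and 12.0 after rotenone, with no test on these sums. Without a single 15-day library the DMSO ratio was 4.56 (replicate 1), 8.96 (replicate 2) or 7.34 (replicate 3).

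Single msp genes in DMSO showed the same direction in the majority. Of the 31, 15 had a ratio of 15 to 5 days whose 95% exact counting interval lay above 1, from 3.37 to 44.9. A further 9 were at 0 in all 3 libraries at 5 days. Scaled to library size, their 15-day counts were 1.54 to 9.22 times a floor of 3 counts over the 5-day group. Intervals of the other members held 1 in 2 genes, and 5 genes had at most 3 counts at both ages. After rotenone 19 had an interval above 1 (ratios of 3.99 to 67.3), and 5 had at most 3 counts at both ages. The other 7 were at 0 at 5 days, with 15-day counts of 1.90 to 19.4 times the floor. The intervals cover counting error only. Values against the floor take no account of error in the 15-day count, so they are not lower limits.

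In the edgeR quasi-likelihood test, 14 of the 15 tested msp genes rose with age in DMSO and 15 of 15 after rotenone (Benjamini-Hochberg adjusted over all 17166 tested genes). An msp gene with few counts at 5 days could pass the filter only through 15-day libraries, of either treatment. The genes tested in DMSO could thus have passed through rotenone libraries. These counts therefore describe genes that were high at 15 days, and not the whole family. Among all tested genes 35.2% rose and 40.9% fell with age in DMSO (76.2% called), and 36.6% rose and 42.9% fell after rotenone (79.5% called). The median log2 difference of the tested msp genes was 3.87 in DMSO and 4.11 after rotenone, beside -0.06 and -0.09 over all genes. In DMSO it was 3.26 with the 3 genes at 0 at 5 days set against the floor of 3 counts.

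msp-50 (WBGene00003443, chromosome II, 5199797 to 5200180) had 0, 1 and 1 counts in DMSO at 5 days and 26, 7 and 14 at 15 days. After rotenone it had 1, 0 and 1 counts at 5 days and 24, 30 and 15 at 15 days. All 6 libraries at 15 days lay above all 6 at 5 days. The count ratio was 27.1 (95% interval 7.09 to 230) in DMSO and 39.4 (10.5 to 332) after rotenone, with log2 differences of 4.52 ± 0.73 (adjusted p = 1.47e-05) and 5.04 ± 0.67 (adjusted p = 9.77e-07, edgeR). msp-81 (WBGene00003467, chromosome IV, 9836034 to 9836417) and msp-57 (WBGene00003450, chromosome IV, 5062578 to 5062961) had 1 count in each 5-day group. At 15 days msp-81 had 39 counts in DMSO and 41 after rotenone, and msp-57 had 29 and 59. Their count ratios were 44.9 (7.6 to 1820) and 46.8 (7.94 to 1892) for msp-81, and 33.4 (5.54 to 1365) and 67.3 (11.6 to 2703) for msp-57. msp-45, msp-77 and msp-19 were at 0 in all 3 DMSO libraries at 5 days and had 24, 23 and 21 counts at 15 days. Scaled to library size, these were 9.22, 8.83 and 8.07 times the floor of 3 counts. msp-142 (WBGene00003469, chromosome II, 5797927 to 5798310) was at 0 in the rotenone libraries at 5 days and had 51 counts at 15 days, 19.4 times the floor. In DMSO it passed with a ratio of 10.8 (3.32 to 55.3), although DMSO replicate 2 at 15 days, with 0.0295 CPM, lay within the 5-day range.

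At 5 days 14 of the 31 msp genes were at 0 in all 3 DMSO libraries and 9 after rotenone, and most of the others had few counts. msp-31 (WBGene00003429, chromosome II, 4916179 to 4916562) had the most in DMSO. It had 13, 10 and 8 counts in DMSO and 4, 4 and 5 after rotenone, so that it held 31 of the 98 msp counts of the DMSO group. msp-59 (22 counts) and msp-33 (13 counts), which are named here after their values were seen, held most of the remainder. In DMSO msp-31 did not pass with age (0.15 ± 0.42, adjusted p = 0.756), and msp-59 had a count ratio of 0.943 (0.477 to 1.84). After rotenone msp-31 rose by 2.04 ± 0.46 (adjusted p = 0.000449, edgeR), and msp-59 had a ratio of 4.73 (2.03 to 12.8).

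The nspd genes were higher at 15 days too. Their sum was 0.736 ± 0.0908 CPM in DMSO at 5 days and 4.11, 1.47 and 2.64 CPM in the 3 libraries at 15 days. After rotenone it was 0.732 ± 0.0413 CPM at 5 days (SD, n = 3) and 3.74, 4.29 and 2.25 CPM at 15 days. The ratio of the means was 3.72 in DMSO (2.79 without replicate 1 at 15 days and 4.58 without replicate 2) and 4.68 after rotenone. Of the 5 tested genes 4 rose in DMSO and 5 after rotenone, where 35.2% and 36.6% of all tested genes rose. Here too the filter favoured genes that were high at 15 days. nspd-2 (WBGene00010633, chromosome IV, 9844060 to 9844272) had 2 counts in each 5-day group, and 43 in DMSO and 81 after rotenone at 15 days. Its count ratios were 24.8 (6.45 to 211) and 46.2 (12.4 to 388), and its log2 differences 4.38 ± 0.76 (adjusted p = 3.41e-05) and 5.27 ± 0.66 (adjusted p = 4.25e-07). nspd-7, the highest of the family and named after its values were seen, had the smallest difference of the 5. It had 19, 23 and 24 counts in DMSO at 5 days and 42, 13 and 37 at 15 days, groups that overlapped (0.67 ± 0.31, adjusted p = 0.0537). After rotenone it rose by 0.88 ± 0.31 (adjusted p = 0.0136), and there too the groups overlapped.

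**Figure D2:**
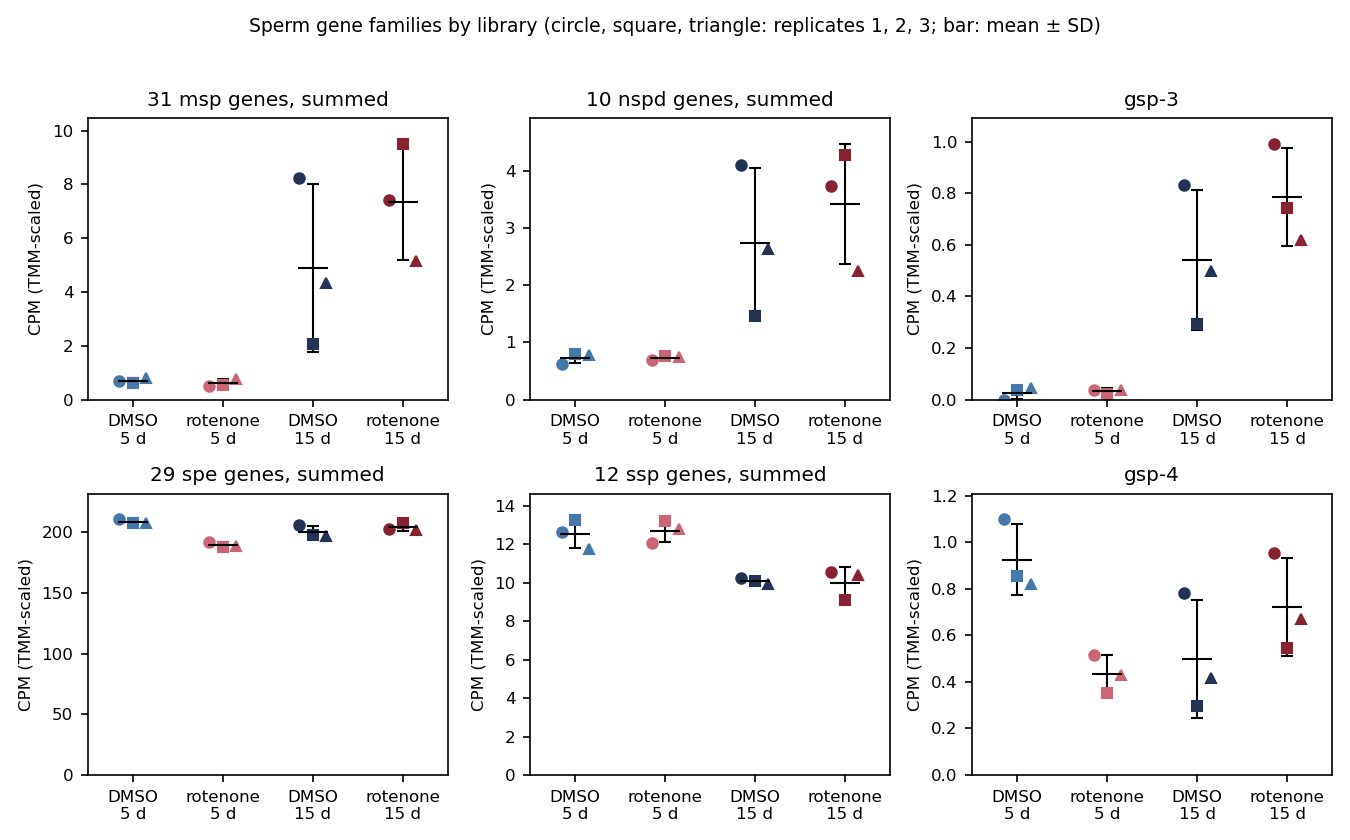
Summed level of the msp, nspd, spe and ssp genes and the levels of gsp-3 and gsp-4 (TMM-scaled CPM, vertical axes) in the 12 libraries, by treatment and age, with the mean and SD of 3 libraries as a bar. The msp and nspd sums and gsp-3 are higher in every 15-day library than in any 5-day library, the spe sum stays within 187 to 211 CPM, and DMSO replicate 2 at 15 days (square) is the lowest 15-day library for msp, nspd and both gsp genes.

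The phosphatase genes differed from each other. gsp-3 (WBGene00021113, chromosome I, 4709259 to 4710712) had 0, 2 and 2 counts in DMSO at 5 days and 33, 10 and 24 at 15 days. After rotenone it had 2, 1 and 2 counts at 5 days and 52, 30 and 25 at 15 days. The ages did not overlap in either treatment, and gsp-3 rose by 4.14 ± 0.57 in DMSO (adjusted p = 1.74e-06) and 4.49 ± 0.49 after rotenone (adjusted p = 6.67e-08). gsp-4 (WBGene00020187, chromosome I, 3838237 to 3839673) had 47, 44 and 38 counts in DMSO at 5 days and 31, 10 and 20 at 15 days. After rotenone it had 27, 17 and 22 counts at 5 days and 50, 22 and 27 at 15 days. In CPM the DMSO ages did not overlap, at 1.099, 0.856 and 0.822 beside 0.781, 0.295 and 0.415, and gsp-4 fell by 0.88 on the log2 scale (SE 0.28, adjusted p = 0.00908). After rotenone it rose by 0.76 ± 0.29 (adjusted p = 0.0228). The rise was not past the threshold without rotenone replicate 1 at 15 days (0.49, adjusted p = 0.185) nor without rotenone replicate 2 (0.64, adjusted p = 0.08) or 3 (0.76, adjusted p = 0.0506) at 5 days, and the fall was not without DMSO replicate 3 at 15 days (-0.73, adjusted p = 0.053).

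In the ssp family 2 of 5 tested genes rose with age and 2 fell in each treatment, a share of 80% called that is near the 76.2% and 79.5% of all tested genes. Their summed level was 12.6 ± 0.750 and 12.7 ± 0.589 CPM at 5 days in DMSO and after rotenone, and 10.1 ± 0.145 CPM in DMSO at 15 days (SD, n = 3). In the rotenone libraries at 15 days it was 10.5, 9.07 and 10.4 CPM. ssp-34 (WBGene00013858, chromosome IV, 10738279 to 10738602) had 0, 1 and 0 counts in DMSO at 5 days and 19, 6 and 13 at 15 days. After rotenone it had 2, 2 and 0 counts at 5 days and 21, 13 and 12 at 15 days, with no overlap between ages. Its count ratio was 43.8 (7.40 to 1774) in DMSO and 13.1 (4.79 to 50.2) after rotenone. ssp-16, named after its values were seen, was the other gene that rose (2.89 ± 0.71 and 3.67 ± 0.70). ssp-37 fell by 0.34 in DMSO and 0.40 after rotenone, and its DMSO ages overlapped. The DMSO value was not past the threshold without DMSO replicate 2 at 5 days (-0.19, adjusted p = 0.197) or replicate 1 at 15 days (-0.22, adjusted p = 0.133). Nor was it with another scaling (RLE factors, adjusted p = 0.0534) or in DESeq2 (adjusted p = 0.0777). ssp-10 fell in DMSO (-0.99 ± 0.14, adjusted p = 3.56e-06), and ssp-35 fell after rotenone (-0.74 ± 0.12, adjusted p = 1.13e-05). The rotenone values of ssp-10 (-0.21, adjusted p = 0.205) and the DMSO value of ssp-35 (-0.21, adjusted p = 0.122) did not pass.

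The spe genes had members on each side and a nearly level sum, at 209 ± 1.75, 189 ± 2.46, 200 ± 5.15 and 204 ± 2.90 CPM in DMSO and rotenone at 5 days and in DMSO and rotenone at 15 days (SD, n = 3). Of 23 tested, 11 rose and 5 fell with age in DMSO, and 9 rose and 3 fell after rotenone. The shares called, 69.57% and 52.17%, were below the 76.2% and 79.5% of all tested genes, and the median log2 differences were 0.31 and 0.26, beside -0.06 and -0.09 over all genes. spe-44 (WBGene00007732, chromosome IV, 12452063 to 12454215) encodes a transcription factor that drives the sperm programme. It stood at 12.3, 12.2 and 12.6 CPM in DMSO at 5 days and 17.6, 16.8 and 15.9 CPM at 15 days. After rotenone it stood at 11.4, 11.04 and 12.7 CPM at 5 days and 17.9, 18 and 15.3 CPM at 15 days, with no overlap between ages. It rose by 0.43 ± 0.07 (adjusted p = 7.04e-06) and 0.55 ± 0.07 (adjusted p = 2.3e-07).

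Of the single spe genes named here, some rose and some fell with age. spe-6 (WBGene00004960, chromosome III, 11505488 to 11508930) encodes a casein kinase 1-like protein needed for MSP assembly. It stood at 2.95, 2.70 and 2.88 CPM in DMSO at 5 days and 7.99, 8.13 and 7.12 CPM at 15 days. After rotenone it stood at 3.41, 3.09 and 3.12 CPM at 5 days and 7.18, 6.72 and 7.62 CPM at 15 days. Every 15-day library was at 6.72 CPM or above and every 5-day library at 3.41 CPM or below, and spe-6 rose by 1.44 ± 0.09 (adjusted p = 7.27e-12) and 1.16 ± 0.08 (adjusted p = 9.92e-11). spe-18, whose product acts in the assembly of MSP into fibrous bodies, rose by 0.85 ± 0.17 and 1.14 ± 0.17, and spe-15 by 0.29 ± 0.06 and 0.24 ± 0.06. spe-48 rose by 0.14 ± 0.04 and 0.20 ± 0.04. spe-10, a palmitoyltransferase of the membranous organelles, fell by 0.98 in DMSO (SE 0.37) and 1.12 after rotenone (SE 0.36). Its ages overlapped after rotenone. In DESeq2 neither value was past the threshold (adjusted p = 0.123 in DMSO and 0.0737 after rotenone). The DMSO value of spe-10 was not past the threshold without DMSO replicate 2 at 5 days (adjusted p = 0.0524) or DMSO replicate 1 (adjusted p = 0.0672) or 2 (adjusted p = 0.0608) at 15 days, nor was the rotenone value without rotenone replicate 2 at 5 days (-0.75, adjusted p = 0.0778). spe-39 fell in DMSO, from 96.2, 93.8 and 95.3 to 77.6, 74.9 and 72.2 CPM, a log2 difference of -0.34 ± 0.03 (adjusted p = 5.38e-09). After rotenone spe-39 fell by 0.12 (SE 0.03, adjusted p = 0.00154, edgeR). That value was not past the threshold with RLE factors (-0.03, adjusted p = 0.364) or in DESeq2 (-0.04, adjusted p = 0.44).

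The spe genes named next, which are not a fixed list, likewise included rises and a fall. spe-29, a small membrane protein of sperm activation, fell by 1.09 in DMSO (SE 0.32) and 2.07 after rotenone (SE 0.35), from 0.371 ± 0.0537 to 0.172 ± 0.0276 CPM in DMSO (SD, n = 3). In DESeq2 its DMSO fall was not past the threshold (-1.06, adjusted p = 0.0709). Exons of spe-29 overlap those of gon-1 in 117 bases, 34.1% of its exonic bases. spe-41 (WBGene00004976, chromosome III, 3439011 to 3444210), a TRP-family calcium channel needed for fertilization, rose in DMSO (0.90 ± 0.13, adjusted p = 2.33e-06), and its rotenone value did not pass (-0.11, adjusted p = 0.381). spe-36 and spe-11 are named after their values were seen. spe-36, a secreted sperm protein needed for fertilization, rose by 1.03 ± 0.18 and 1.03 ± 0.19. spe-11, a protein that the sperm brings to the embryo, rose by 1.8037 ± 0.25 and 2.14 ± 0.25, from 49 to 150 counts in DMSO and from 46 to 180 after rotenone.

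**Figure D3:**
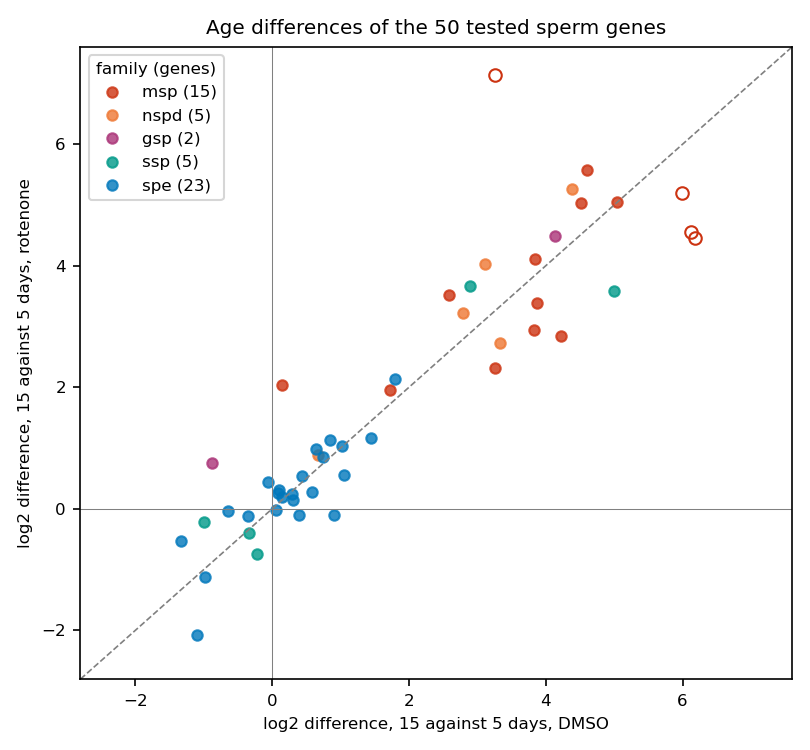
Fitted log2 difference of 15 against 5 days in DMSO (horizontal axis) and after rotenone (vertical axis) for the 50 tested sperm genes, coloured by family, with the dashed line at equal values. The msp and nspd genes lie mostly at the upper right and the spe genes nearer to 0 on both axes. Open circles mark genes at 0 counts in all 3 libraries of a 5-day group, whose fitted values depend on the prior count and are not bounds.

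All 50 tested sperm genes together had 32 rises and 8 falls with age in DMSO and 33 rises and 5 falls after rotenone. These were 80.0% and 76.0% of the tested genes, beside the 76.2% and 79.5% of all genes called. The share called was thus near that of all genes, while the median log2 difference was 0.97 in DMSO and 1.08 after rotenone, beside -0.06 and -0.09. The filter admitted genes through the groups in which they were high, so these values are a description.

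The rise of msp genes was uneven between replicates. DMSO replicate 2 at 15 days was the lowest of its group in 12 of 15 tested msp genes. So it was in 5 of 5 tested nspd genes, both gsp genes and 16 of 22 other tested genes of sperm and spermatogenesis. Over all 17166 tested genes it was the lowest in 34.45%. DMSO replicate 1 was the highest of the group in 15 of 15 tested msp genes. Among the rotenone libraries at 15 days replicate 3 was the lowest in 14 of 15 tested msp genes, beside 34.94% of all tested genes. Without DMSO replicate 2 at 15 days 57 sperm genes passed the filter, of which 38 rose and 7 fell with age in DMSO. Of the 50 genes tested with all libraries, 32 rose and 7 fell in that fit, beside 32 and 8 with all libraries. What sets these libraries apart for sperm genes was not tested.

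Rotenone against DMSO at 5 days called few sperm genes. Of 50 tested, 3 were higher and 5 lower after rotenone (16.0%), while 44.7% of all tested genes were called, 21.3% higher and 23.3% lower. Without DMSO replicate 2 or rotenone replicate 2 at 5 days 1 sperm gene was higher, and without DMSO replicate 1 at 15 days 5 were, with 58, 58 and 54 sperm genes tested. The median log2 difference was -0.01 over the tested sperm genes and 0.03 over all. With library totals as the scale, the median of all genes moved to 0.15, and 6 sperm genes were higher and 3 lower. In the DMSO group at 5 days 38 of the 84 genes, 25 msp genes among them, had at most 3 counts, and in these a fall or a small rise after rotenone was not detectable at this depth. Among them, and named after their values were seen, msp-40 had 2 counts in DMSO and 10 after rotenone (adjusted p = 0.121, edgeR), and msp-49 had 1 and 8 (adjusted p = 0.169). The groups did not overlap in either gene, and neither passed. In 14 of the 50 tested sperm genes (28%) the DMSO and rotenone libraries did not overlap, beside 54.3% of all tested genes. The 8 called genes were among these 14, and of all genes called 96.1% did not overlap. Many tested sperm genes had few counts, and the part of this in the low shares was not tested. Neither the 16.0% nor the 28% is taken as a like comparison with all genes.

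spe-41 stood at 2.67, 2.10 and 2.29 CPM in DMSO and 4.35, 4.75 and 4.45 CPM after rotenone. It was 1.93-fold higher (0.95 ± 0.12, adjusted p = 4.16e-06, edgeR). spe-26, a kelch-repeat protein of sperm formation, stood at 1.36, 1.07 and 1.15 beside 1.72, 1.72 and 1.502 CPM (0.47 ± 0.16, adjusted p = 0.0185). ssp-35 stood at 3.70, 3.58 and 4.26 beside 4.54, 4.88 and 4.78 CPM (0.30 ± 0.11, adjusted p = 0.0345). These latter 2 were the weaker rises. spe-26 was not past the threshold in DESeq2 (adjusted p = 0.0813) or without DMSO replicate 2 (0.0851) or 3 (0.0525) or rotenone replicate 1 (0.0596) or 2 (0.0574), and ssp-35 was not in DESeq2 (0.111) or without DMSO replicate 1 (0.0941) or 2 (0.139) or rotenone replicate 2 (0.097) or 3 (0.0804, adjusted p throughout).

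Among the lower genes spe-5 (WBGene00004959, chromosome I, 5101665 to 5103476) stood at 30.3, 30.5 and 29.6 CPM in DMSO and 21.97, 21.5 and 20.4 CPM after rotenone. It fell by 0.50 on the log2 scale (SE 0.04, adjusted p = 1.61e-08). spe-5 overlaps exons of ift-20 in 68 bases. spe-39 (WBGene00004975, chromosome V, 6785451 to 6787864) stood at 96.2, 93.8 and 95.3 beside 83.2, 81.9 and 83.0 CPM and fell by 0.20 (SE 0.03, adjusted p = 3.02e-05), but with library totals as the scale the value was -0.08 (adjusted p = 0.0538). ssp-10 (WBGene00006039, chromosome IV, 9850702 to 9851031) stood at 3.16, 2.70 and 2.79 beside 1.41, 1.83 and 1.91 CPM and fell by 0.75 (SE 0.13, adjusted p = 0.000148). gsp-4 stood at 1.099, 0.856 and 0.822 beside 0.515, 0.353 and 0.429 CPM and fell by 1.08 (SE 0.28, adjusted p = 0.00367). msp-31 had 13, 10 and 8 counts beside 4, 4 and 5 and fell by 1.34 (SE 0.50, adjusted p = 0.0362), a call that rested on every library but DMSO replicate 3, since leaving out any of the other 5 of that comparison gave an adjusted p of 0.0539 to 0.15.

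**Figure D4:**
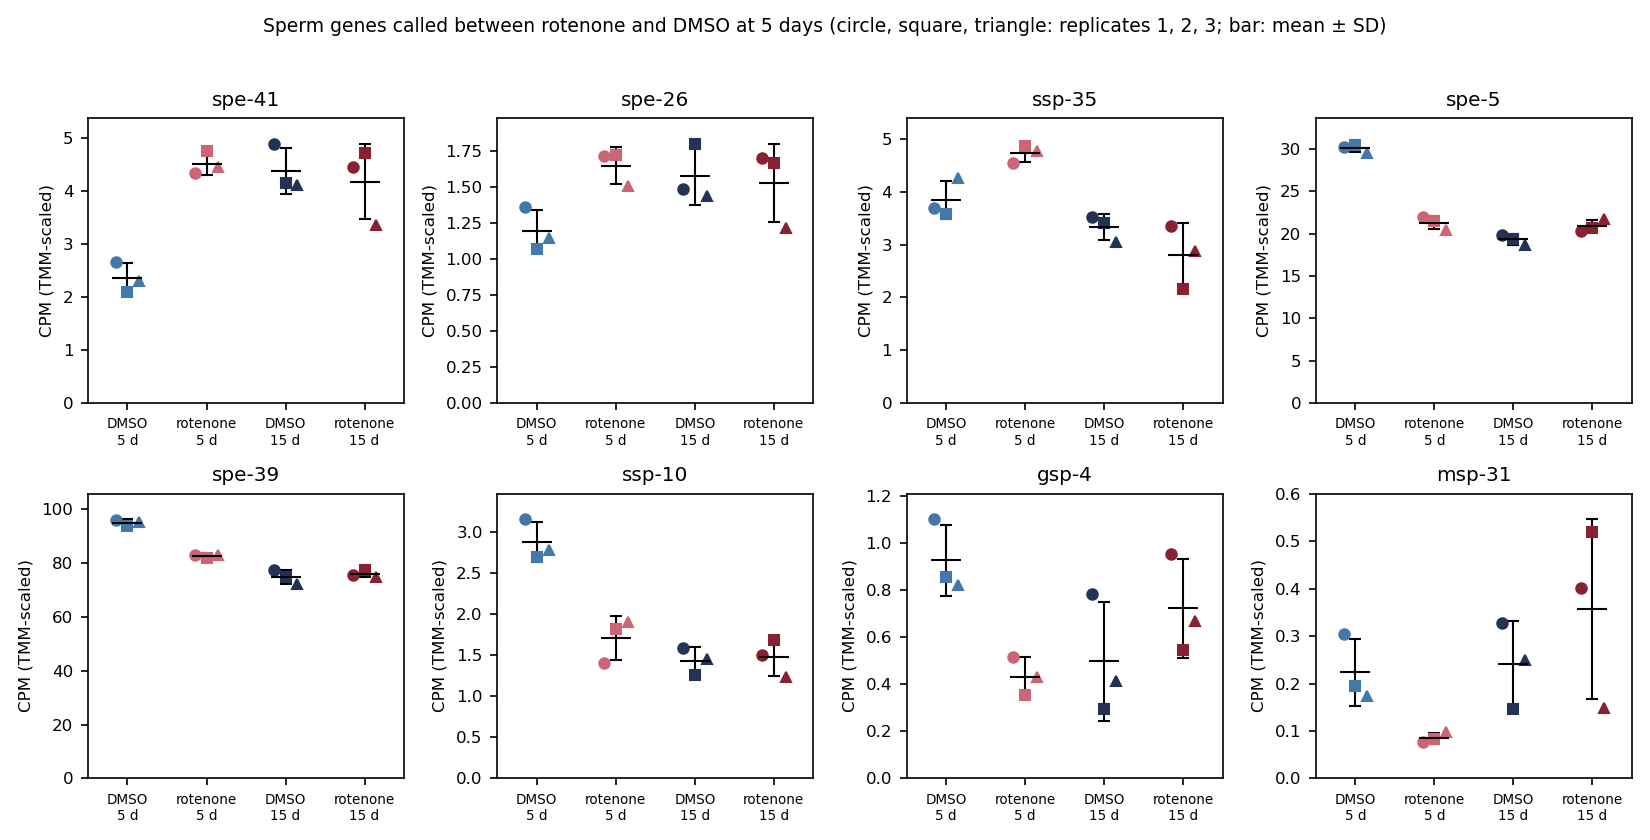
Levels (TMM-scaled CPM, vertical axes) of the 8 sperm genes called between rotenone and DMSO at 5 days, in all 12 libraries by treatment and age, with the mean and SD of 3 libraries as a bar. The 3 rotenone libraries at 5 days lie apart from the 3 DMSO libraries in each gene, and in all 8 genes the treatments overlap or lie closer together at 15 days.

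At 15 days 0 of the 50 tested sperm genes passed in either direction in edgeR or in DESeq2, where 0.408% of all tested genes did (0.28% higher and 0.128% lower). At an unadjusted p under 0.05, 6 of 50 (12%) passed, beside 7.2% of all tested genes. All 6 were higher after rotenone, beside 3.79% of all tested genes (msp-19, msp-40, msp-49, nspd-2, spe-4 and spe-5, named as the genes of that count). A gene could pass the filter through the rotenone libraries in which it was high, so this direction is a description only. The msp sum was 1.51 times that of DMSO, 2.30 times without DMSO replicate 1 and 1.17 times without DMSO replicate 2. Without DMSO replicate 1, 1 of 54 tested genes passed as higher. At 5 days the msp sum after rotenone was 0.871 times that of DMSO.

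The interaction asked whether the rotenone difference at 15 days differed from that at 5 days. It called 5 of 50 tested sperm genes higher and 2 lower, beside 25.7% of all tested genes (15.4% higher and 10.3% lower). It shares the 5-day libraries with the comparison above. spe-5 went from -0.50 to 0.11 (interaction 0.61 ± 0.06, adjusted p = 9.7e-07), with 19.9, 19.4 and 18.7 CPM in DMSO and 20.3, 20.7 and 21.7 CPM after rotenone at 15 days. With age spe-5 fell in DMSO (-0.64 ± 0.04, adjusted p = 4.95e-11, edgeR), and its rotenone value did not pass (-0.03, adjusted p = 0.512). spe-41 went from 0.95 to -0.06 (-1.01 ± 0.17, adjusted p = 0.000236), with 4.89, 4.15 and 4.11 beside 4.45, 4.71 and 3.37 CPM. spe-39 went from -0.20 to 0.02 (0.22 ± 0.04, adjusted p = 0.00112), although with library totals the interaction was 0.09 (adjusted p = 0.182). gsp-4 went from -1.08 to 0.56 (1.64 ± 0.41, adjusted p = 0.00612) and ssp-10 from -0.75 to 0.04 (0.78 ± 0.21, adjusted p = 0.0102). ssp-35 (-0.53 ± 0.17, adjusted p = 0.0296) and msp-31 (1.89 ± 0.63, adjusted p = 0.0344) were not past the threshold in 7 and 8 of the 12 fits that left out a library. In the 7 fits without DMSO replicate 1 or 2 or rotenone replicate 2 or 3 at 5 days, or without DMSO replicate 1 or 2 or rotenone replicate 2 at 15 days, 1 sperm gene was lower in place of 2. The difference of the 14 other tested msp genes between ages, which rose in both treatments, did not differ past the threshold between treatments.

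Genes of sperm and spermatogenesis outside the rule were followed in a list of 30 symbols. Of these, 26 were found in the table and 22 were tested. Whether the genes of this list are expressed only in sperm was not tested. In DMSO 15 rose and 3 fell with age, with a median of 1.17, and after rotenone 18 rose and 1 fell, with a median of 1.92. The shares called, 81.82% and 86.36%, were near the 76.2% and 79.5% of all tested genes, whose median log2 differences were -0.06 and -0.09. spch-1 (4.00 ± 0.62) and spch-3 (3.51 ± 0.50), which encode sperm chromatin proteins, and msd-4 (3.27 ± 0.44), of the MSP-domain family, had the largest differences in DMSO. sss-1 (5.75 ± 0.58), msd-4 (4.66 ± 0.42) and spch-3 (4.47 ± 0.46) had the largest after rotenone. The Argonaute gene alg-3 of spermatogenesis, named after its values were seen, had 13, 16 and 8 counts in DMSO at 5 days and 86, 20 and 57 at 15 days, with replicate 2 again the lowest. smz-2 (-0.73 ± 0.19), ssq-1 (-0.68 ± 0.27) and cpb-1 (-0.40 ± 0.04), a CPEB-family RNA-binding protein of spermatogenesis, fell in DMSO, and gskl-1 (-0.62 ± 0.20) fell after rotenone. At 5 days cpb-1 (-0.54 ± 0.04), wee-1.3 (-0.27 ± 0.03) and puf-8 (-0.25 ± 0.03) were lower after rotenone, and the interaction called 4 higher. These were 13.64% and 18.18% of the 22 genes, beside 44.7% and 25.7% of all tested genes.

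Germline sex determination genes set the choice between sperm and oocyte fate. Of 12 genes of germline sex determination 8 rose and 4 fell with age in DMSO and 9 rose and 3 fell after rotenone, beside 76.2% and 79.5% of all tested genes called. fog-3 and fog-1, which promote sperm fate, fell by 1.09 (SE 0.17) and 0.57 (SE 0.04) in DMSO and by 1.10 (SE 0.15) and 0.26 (SE 0.04) after rotenone. her-1, the signal of male fate, rose by 1.10 ± 0.12 in DMSO and 0.95 ± 0.11 after rotenone. tra-1, the transcription factor of female fate, rose by 0.63 ± 0.05 and 0.85 ± 0.05. tra-2 fell by 0.15 (SE 0.04) in DMSO and 0.23 (SE 0.04) after rotenone. tra-3 rose by 0.47 ± 0.05 in DMSO, and fem-2 rose by 0.61 ± 0.04 after rotenone. The named genes are those of largest difference and do not stand for a direction of either fate. At 5 days 2 were higher after rotenone and 6 lower (66.67%, beside 44.7% of all tested genes).

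The oocyte side of the MSP signal was described with 16 genes. In DMSO 9 rose and 4 fell with age, and after rotenone 10 rose and 4 fell. The shares called, 81.25% and 87.5%, were near the 76.2% and 79.5% of all tested genes. mpk-1, the kinase activated in oocytes by MSP, rose by 0.31 ± 0.03 and 0.39 ± 0.03. gsa-1 (-0.77 ± 0.07) and kin-1 (-0.73 ± 0.03), a G protein alpha subunit and a protein kinase A subunit that act in the gonadal sheath, fell in DMSO, as they did after rotenone (-0.88 ± 0.07 and -0.85 ± 0.03). Of 12 oocyte markers 3 rose and 4 fell in DMSO and 4 rose and 4 fell after rotenone (58.33% and 66.67% called, below the shares of all genes).

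Markers of other sources of sperm RNA were read beside the rise with age. The 13 male markers summed to 33.3 to 36.2 CPM in DMSO and 30.6 to 30.97 CPM after rotenone at 5 days, and to 39.3 to 40.96 and 36.1 to 37.9 CPM at 15 days. Of 12 tested male markers 4 rose and 1 fell in DMSO and 3 rose and 2 fell after rotenone, which was 41.67% called in each treatment beside 76.2% and 79.5% of all tested genes. cwp-2 (1.13 ± 0.40), lov-1 (0.81 ± 0.21) and pkd-2 (0.77 ± 0.28), genes of male sensory neurons, rose in DMSO. try-5, a protease of male seminal fluid, fell there by 0.87 (SE 0.10). After rotenone the genes called higher were cwp-3 (1.18 ± 0.40), lov-1 (0.47 ± 0.21) and swm-1 (0.47 ± 0.04). try-5 and cil-7 fell after rotenone by 0.62 (SE 0.11) and 0.47 (SE 0.19). The 14 markers of larval moult and cuticle summed to a mean of 523 CPM in DMSO and 766 CPM after rotenone at 5 days, and of 349 and 359 CPM at 15 days. Their members moved in both directions, and 7 rose and 6 fell with age in DMSO (median 0.35) and 5 rose and 7 fell after rotenone (median -0.02), which was 92.86% and 85.71% called. The collagen genes bli-2 (2.17 ± 0.66), bli-1 (2.09 ± 0.84) and col-17 (2.01 ± 0.32) rose in DMSO, while dpy-7 (-2.60 ± 0.13), also a collagen gene, ptr-4 (-1.95 ± 0.06) and mlt-8 (-1.46 ± 0.07) fell. Of the 11 early embryo markers 8 were tested, of which 3 rose and 4 fell with age in DMSO and 3 rose and 5 fell after rotenone (87.5% and 100% called). The part of males, larvae or embryos in the sperm gene levels was not tested.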

How the data were processed

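Per the submitters' processing notes, the authors' tools were featureCounts 1.4.6-p4, STAR 2.4.1d and bcl2fastq 1.8.3, the genome build was WBcel235, and settings, annotation release and strand handling are not given in the sources used here. The authors deposited raw counts per gene, whole numbers without normalization, and an RPKM table. In the deposited RPKM table, the lengths implied in 3862 well-counted genes (2000 counts or more per library) differed between libraries by a median ratio of 1.57 with each library's own total, but by at most 0.0523% when the totals were repeated down the columns, so RPKM values were not used. Symbols and positions came from Ensembl release 115, which holds 46449 of 46748 identifiers.

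Counts were fitted in R 4.3.3 with edgeR 4.0.16. Genes passing filterByExpr (minimum count 10) left 17166, libraries were scaled with TMM factors, and 1 quasi-likelihood model of 4 groups without covariates was fitted to all 12 libraries (8 residual degrees of freedom). A gene was called where its p, Benjamini-Hochberg adjusted over the genes tested, was under 0.05. Values after ± are standard errors of the fit, the size of the log2 difference divided by the square root of F, unless SD is stated. CPM is the count over the library total times its TMM factor. Count ratios have exact 95% binomial intervals, and 3 counts over a group stand as the floor for a group at 0.

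Samples with the same replicate number shared a sequencing lane, per the labels. Deviations from the group means correlated at -0.0464 to 0.1822 within lanes (18 pairs) and at -0.1875 to 0.1157 across lanes (36 pairs), and 1 of the 18 exceeded 0.1, so the lane entered only as an alternative. No pair of replicates was alike within counting noise (mean chi-square per gene of 3.04 to 13.1).

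The alternatives were other scalings, other filters, the compared groups alone, DESeq2 1.42.0, the lane as a block and each library left out. A robust quasi-likelihood fit was chosen after seeing the data, because on simulated data with gene-wise dispersions the main test made more false calls than its nominal rate, while with trended dispersions it did not. Named genes were gsp-3, gsp-4, spe-41, the 12 sperm genes of highest mean CPM, and up to 8 called sperm genes per direction and contrast by size, and in the other lists up to 3 per direction. The sperm genes and the 7 lists of other genes were chosen with earlier results of these data known. The values of 1 spe gene are not reported here, although it stays in the counts and sums.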

Additional observations from a re-analysis of the deposited data

Results flagged for a closer look

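In 7 sperm genes the rotenone difference at 15 days differed from that at 5 days in the test of the difference itself, the interaction of the edgeR quasi-likelihood fit. Each value is the log2 difference at 15 days minus that at 5 days. It was 0.61 for spe-5, -1.01 for spe-41, 0.22 for spe-39, 1.64 for gsp-4, 0.78 for ssp-10, -0.53 for ssp-35 and 1.89 for msp-31. For spe-39 the value was 0.09 with library totals and not past the threshold. For ssp-35 and msp-31 it was not past the threshold when certain single libraries were left out. The genes share their 5-day libraries with the comparison of rotenone and DMSO at 5 days, and 25.7% of all tested genes were called in the interaction.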

How the results depend on the processing

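None of the 62 values of named sperm genes reversed direction under the alternatives run, and 47 of the 62 stayed past the threshold under every alternative that could test them. Library totals gave 6 higher and 3 lower sperm genes at 5 days and 4 lower in the interaction. They moved the median of all genes from 0.03 to 0.15 at 5 days, from -0.09 to -0.19 for age after rotenone and from -0.01 to -0.15 in the interaction. DESeq2 gave 1 higher at 5 days, 5 lower with age in DMSO, 3 lower with age after rotenone, and 3 higher and 1 lower in the interaction. A filter of at least 1 CPM in 3 libraries left 16 sperm genes to test, and gave 3 lower at 5 days, 9 higher and 4 lower with age in DMSO, 7 higher and 3 lower with age after rotenone, and 3 higher in the interaction. No filter gave 52 higher with age after rotenone. The 2 DMSO groups alone, where 32 sperm genes were tested, gave 16 higher with age. With the sequencing lane as a replicate block the counts were 3 and 5 at 5 days and 5 and 2 in the interaction. With age they were 32 and 8 in DMSO and 33 and 5 after rotenone. No call of a named gene changed, and the lanes did not pair the samples by the correlation check. Leaving out 1 library, with 53 to 58 sperm genes past the filter in place of 50, gave 1 to 5 higher and 4 to 6 lower at 5 days, 0 to 1 higher at 15 days, 33 to 38 higher and 6 to 8 lower with age in DMSO, 33 to 40 and 4 to 5 with age after rotenone, and 4 to 6 and 1 to 2 in the interaction. The log2 ratio of the msp sums then ranged from -0.41 to -0.09 at 5 days, 0.23 to 1.20 at 15 days, 2.19 to 3.16 with age in DMSO and 3.36 to 3.80 with age after rotenone. A robust quasi-likelihood fit, chosen after seeing the data, changed no named call. The RPKM alternative was not run, because the deposited values failed the check of their scaling. At under 0.03 CPM per count, genes with few counts limit what could be seen, and the cause of the moved counts was not tested.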
